A study of Taeniopygia guttata with 8 samples.

Results

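Dense clusters are stretches of the zebra finch genome where many regions acetylated at lysine 27 of histone H3 (H3K27ac) lie close together. They were found from position alone. Rows of the deposited table were sorted by chromosome and start, and neighbours were joined where the gap from one end to the next start was up to 5000 bp. Blocks of 8 or more joined rows were kept as clusters, and their rows up to 4000 bp wide are the members. This gave 176 clusters and 1596 member regions of 35958 regions in all, or 4.44%. No read count and no test result entered the choice.

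H3K27ac is written by the acetyltransferases p300 and CBP, removed by histone deacetylases, and marks promoters and enhancers in use. Enhancers that lie side by side often serve one gene, and in mammals long runs of such elements, called super-enhancers or stretch enhancers, are known near genes that define a cell type. RA, the robust nucleus of the arcopallium, is a pallial motor nucleus that drives song output. Area X is a song nucleus of the striatum, in the basal ganglia loop used for song learning and its variability. Bird genomes hold a few large chromosomes and many small, gene-rich ones.

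The study profiled H3K27ac with ChIP-seq (sequencing of immunoprecipitated chromatin) in both nuclei of adult male zebra finches kept singly in sound-isolating boxes. The groups were Area X of singing birds (4 libraries), Area X of silent birds (3), RA of singing birds (4) and RA of silent birds (3). Singing samples are labelled as 2 h of singing, while the protocol gives 1 to 2 h of silence or singing for both behaviours. Per the labels, 18 birds per behaviour gave 3 pools of 6 birds, so the origin of the fourth singing library of each nucleus was not stated, and 1 bird may have given tissue to both nuclei's libraries. The tissue is called laser-captured in 1 label field and dissected in the protocol. Groups were read from column names, minus being read as silent and plus as singing, and the columns were taken as H3K27ac libraries and each numbered library as its own pool. Should 2 of them come from 1 pool, p-values would measure technical spread in part. Whole-cell extracts were not analysed here. No source used here names the genome build. Clusters are therefore named by position (start counted from 1) and not by gene, and the labelled nuclei were not checked against marker genes.

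Reads in regions numbered 4.64 to 10.6 M (1 M is 1000000 reads) per Area X library and 0.203 to 9.48 M per RA library. At that depth the median member had 63.5 to 130 reads in Area X libraries. In RA libraries it had 66 to 168 reads, except in RA singing 2 (20 reads) and RA singing 4 (3 reads, with 238 members at 0). Across the 1596 members, RA silent 2 had a median Spearman coefficient of 0.882 with Area X libraries and 0.826 with the other RA libraries. RA singing 4 had 0.804 and 0.716. Area X libraries had 0.880 to 0.946 with other Area X libraries and 0.631 to 0.795 with RA libraries. The other RA libraries had 0.557 to 0.718 with Area X and 0.813 to 0.848 with RA, so RA silent 2 and RA singing 4 went against their label. Counts of calls between the nuclei, and of small p-values for singing in clusters, are given with and without them. These coefficients describe members that share libraries and neighbours and are no test.

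A typical cluster was a run of 10 rows over 37.7 kb. The number of rows ranged from 8 to 23 and the span from 14.6 to 89.9 kb. Clusters held 4 to 19 members (median 8), and 43 clusters stood at the lower edge of the rule with 8 rows, while 94 blocks of 7 rows lay just outside it. Gaps inside clusters ranged from 501 to 5000 bp with a median of 1601 bp, and rows covered a median of 52.9% of a cluster's span. In all, the clusters spanned 7.20 Mb and their members covered 2.04 Mb. Another 265 rows inside the clusters were wider than 4000 bp and are not members. They lay in 130 of the clusters, and 46 clusters had none.

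Dense clusters were most frequent on the small chromosomes. Chromosome 17 had the most, with 15 clusters and 154 members, or 16.5% of the regions listed there. On chromosome 25, one of the smallest, 43 of 112 regions (38.4%) were members of 5 clusters. Chromosomes 5 and 13 had 10 clusters each, and chromosomes 10 and 24 had 9 each. The large chromosomes 1, 1A, 2 to 5 and Z held 41.8% of all regions and 17.9% of members, in 34 clusters. Chromosome Z, the sex chromosome that males carry as a pair, had 1 cluster with 12 of its 1240 regions. Sequence named random held 4 clusters with 29 members, and no cluster lay on the unplaced sequence named Un, which lists 2170 regions. Clusters occurred on 32 of 67 chromosome names.

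**Figure D1:**
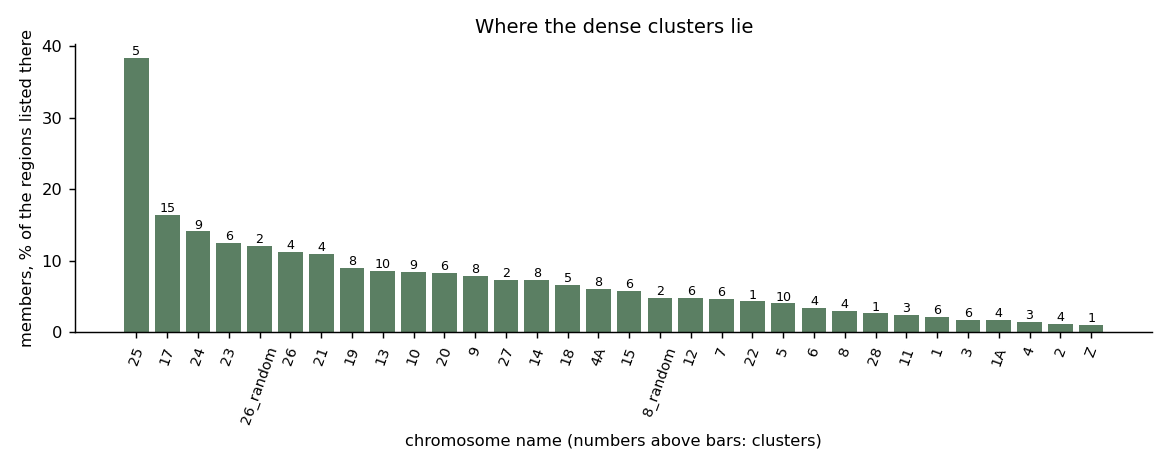
Members of dense clusters as a percentage of all regions listed on each chromosome name that has a cluster (bars), with the number of clusters above each bar. Chromosome 25 stands highest at 38.4%, followed by chromosome 17 at 16.5%, and chromosome Z is lowest at 0.968%.

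Members were somewhat wider than other regions but not more strongly acetylated per base. Their median width was 950.5 bp, against 764 bp over all regions. CPM below is the count per 1000000 reads in regions after TMM scaling, a scaling that sets the typical region equal between libraries. The median of the members' mean CPM was 16.8, against 13.8 over all tested regions. Per kb of width, the medians were 17.3 and 17.1 CPM per kb, so the higher level went with the width. The wide rows inside the clusters were stronger, at a median of 26.0 CPM per kb. Within a cluster the signal was uneven: the strongest member carried between 13.6% and 62.0% of the members' summed CPM, with a median of 30.9%.

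As a share of raw reads in regions, members held 4.13% ± 0.15 in Area X, against 4.49% ± 0.31 in RA (SD over 7 libraries each). The ranges overlapped, at 3.98 to 4.43% in Area X and 4.23 to 5.04% in RA. The wide rows of the same clusters went the other way, with 5.87% ± 0.38 in Area X and 5.19% ± 0.52 in RA. After TMM scaling the summed CPM of members also ran the other way, with 46.6 ± 6.21 in Area X, against 40.2 ± 3.42 in RA, in units of 1000 CPM. The direction of this sum thus depends on the scaling, and shares are given here with no test. By behaviour, the share was 4.17% ± 0.18 in singing (n = 4) and 4.09% ± 0.12 in silent libraries (n = 3) of Area X, and 4.54% ± 0.35 in singing and 4.42% ± 0.32 in silent libraries of RA, so the behaviours differed by less than 1 SD.

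Area X and RA were then compared region by region, as the mean over both behaviours, with edgeR's quasi-likelihood test and Benjamini-Hochberg adjustment over all 35954 tested regions (threshold 0.05). All 1596 members passed the filter on low counts. Of the members, 464 were higher in Area X (29.1%; 28.5% of all tested regions) and 465 lower (29.1%; 25.3% of all). The median log2 fold change, Area X over RA, was -0.07 among members and -0.04 over all regions. Members differed by as much as other regions when called, with a median of 2.42-fold higher and 2.25-fold lower, against 2.54-fold and 2.31-fold over all regions. Libraries of the nuclei did not overlap in 87 members that were higher in Area X (5.45%; 4.38% of all regions) and in 96 that were lower (6.02%; 3.67%). The tissue is a mixture of cells, and in such bulk samples fewer cells with an active region and less acetylation per cell cannot be told apart.

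The even split of directions rests on the scaling. With total-count scaling, under which the all-region median on the log2 scale was -0.35, 323 members were higher in Area X (20.2%) and 618 lower (38.7%). Of all regions, 19.6% were then higher and 34.2% lower. DESeq2 size factors gave 435 and 468, or 27.3% and 29.3%, against 26.9% and 25.6% of all regions. Signal-dependent scaling, which equalises libraries separately at each signal strength, gave 413 and 439. These are 25.9% and 27.5% of members, against 26.3% and 22.2% of all regions. Without RA silent 2 and RA singing 4 together, 505 members were higher and 528 lower, within 1.5 times of the counts reported, and 21454 of 35958 regions were called.

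The balance of directions varied with width, in a way that depended on the scaling. Of the 386 members up to 500 bp, 23.8% were higher in Area X and 21.2% lower, against 17.5% and 25.4% of all regions of that width. Of the 360 members over 2000 bp, 39.7% were higher and 35.6% lower, against 50.1% and 24.6% of all regions from there to 4000 bp. From the narrowest to the widest members, the median log2 fold change rose under TMM scaling, from -0.22 to 0.15. Under signal-dependent scaling it fell, from 0.10 to -0.24. There 28.2% were higher and 11.9% lower up to 500 bp, and 27.8% higher and 42.5% lower over 2000 to 4000 bp. Of all regions of any width, 26.3% were higher and 22.2% lower under this scaling. The 265 wide rows between the members leaned to Area X under TMM scaling, with 140 higher and 55 lower, but to RA under signal-dependent scaling, with 66 higher and 110 lower. Under TMM scaling 52.8% of them were higher and 20.8% lower, against 64.2% and 20.3% of the 1284 wide rows outside the clusters. The lean under TMM scaling was thus not particular to the clusters. In 89 of the 130 clusters with a wide row, the wide rows had a higher median log2 fold change than the members, and the median difference was 0.26. No test of these differences was made.

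The balance showed no steady order with block size, and no difference between sizes was tested. Members of clusters of 12 or more rows were higher in Area X in 24.8% and lower in 29.4% of cases, and those of clusters of 8 to 11 rows in 31.6% and 29.0%. Regions in blocks of 4 to 7 rows were higher in 32.2% and lower in 30.3%, those in blocks of 2 to 3 rows in 28.4% and 24.6%, and those that stood alone in 23.5% and 24.1%. In blocks of 7 rows, just outside the rule, 28.4% of rows were higher and 34.1% lower, and in clusters of 8 rows, just inside it, 31.8% and 28.5%.

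The chromosomes differed in the direction of their members, and these counts rest on few clusters each. On chromosome 4, 20 of 21 members in 3 clusters were higher in Area X and none was lower, while of all regions there 31.9% were higher and 21.2% lower. On chromosome 2, 25 of 33 members in 4 clusters were higher and none lower (32.8% and 19.6% of all regions there). On chromosome 22, 8 of 10 members in 1 cluster were higher (32.3% of all regions there). In the other direction, 40 of 70 members on chromosome 19 were lower in Area X and 6 were higher (34.1% and 19.8% of all regions there). On chromosome 25, 25 of 43 were lower and 3 higher (36.6% and 10.7%), and on chromosome Z all 12 were lower (22.8%). Under total-count, signal-dependent and DESeq2 scaling these 6 chromosomes kept their direction. On the large chromosomes together, 42.5% of members were higher and 24.9% lower, against 32.4% and 21.1% of all regions there. On the other placed chromosomes, 25.7% were higher and 30.1% lower, close to the 24.5% and 29.8% of all regions there.

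Each cluster was also tested as 1 unit, with the reads of its members summed, in a fit over all joined blocks of the table. Of the 176 clusters, 65 were higher in Area X (36.9%; 24.4% of all blocks), 57 were lower (32.4%; 28% of all blocks), and 54 did not pass. A cluster sums more reads than most blocks, of which 14918 of 22210 are single rows, and the part of depth in this share was not tested. Of blocks of 4 to 7 rows, 39% were higher and 33.7% lower, and of blocks of 7 rows 36.2% each. The higher shares against all blocks were thus not particular to the dense clusters. Among the clusters called, the median fold was 1.77 higher and 1.76 lower, and 27 were more than 2-fold higher and 21 more than 2-fold lower. Summed CPM did not overlap between the nuclei in 18 clusters that were higher and 18 that were lower (10.2% each; 3.68% and 4.11% of all blocks). In 53 of the 54 clusters that did not pass, the 95% interval of the fold change stayed within 2-fold in either direction.

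This split depended on the scaling too. With signal-dependent scaling, 33 clusters were higher in Area X and 89 lower. With total-count scaling, 56 were higher and 65 lower. Over all 21910 blocks, 10269 were called in either direction with signal-dependent and 11451 with total-count scaling. The median log2 fold change over all blocks was -0.05 and -0.26 there, against -0.16 under TMM scaling. With DESeq2 size factors, 67 clusters were higher and 46 lower, and 11096 of all blocks were called. Leaving out 1 library at a time gave 37 to 60 clusters lower in Area X in place of 57. The lower count was 37 without RA silent 3 or RA singing 1. It was 38 to 40 without RA silent 1, RA singing 2 or 3, or Area X silent 2 or 3. Over all blocks, 8142 were called in either direction without RA silent 3 and 9623 without RA singing 1. Without RA silent 2 and RA singing 4 together, 67 clusters were higher and 64 lower, and 12964 of 21913 blocks were called. Blocks were not counted by direction in these settings, so whether the clusters' split moved apart from that of all blocks is not shown.

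Single RA libraries reached into the Area X range in many called clusters. Of the 65 clusters higher in Area X, RA singing 4 stood at or above the lowest Area X library in 33, RA silent 2 in 30, RA singing 3 in 20 and RA singing 2 in 15. RA silent 3 did so in 5, and RA silent 1 and RA singing 1 in none. Of the 57 clusters lower in Area X, RA singing 4 stood at or below the highest Area X library in 32, RA silent 2 in 24 and RA singing 2 in 5. On the Area X side, libraries 1 of both behaviours reached into the RA range most often in clusters that were higher, with 34 for singing and 31 for silent. Of the 57 clusters lower in Area X, silent 1 reached it in 32, singing 4 in 30 and singing 1 in 28. The remaining Area X libraries did so in 10 to 19.

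Members of a cluster tended to differ together, yet not always. Called members were all higher in Area X in 65 clusters, all lower in 55, and of both directions in 55, and 1 cluster had no called member. Every member was called higher in 14 clusters and every member lower in 8. Of the variance of the members' log2 fold change, 69.5% lay between clusters. The SD within clusters was 0.65, against 1.10 over all members. The distance from the lowest to the highest log2 fold change within a cluster ranged from 0.50 to 3.35, with a median of 1.73. Scaling changed the number of clusters with called members of both directions to 50 with total-count and 48 with signal-dependent scaling.

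Neighbouring members were more alike the closer they lay. Across 1250 pairs of neighbouring members, the log2 fold changes correlated with Pearson's r = 0.77. In 358 pairs with gaps up to 1000 bp r was 0.87, in 383 pairs with gaps of 1000 to 2000 bp it was 0.80, and in 509 pairs with longer gaps it was 0.65. In 511 pairs both neighbours were called, in 487 of them in the same direction and in 24 in opposite directions. Pairs share their libraries and their locus, so these values describe and do not test.

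The 55 clusters with called members of both directions held 544 members, of which 111 were higher in Area X and 156 lower. As 1 unit, 10 of these clusters were higher, 10 lower and 35 did not pass. Of the 54 clusters that did not pass as a unit, 35 thus held called members of both directions.

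**Figure D2:**
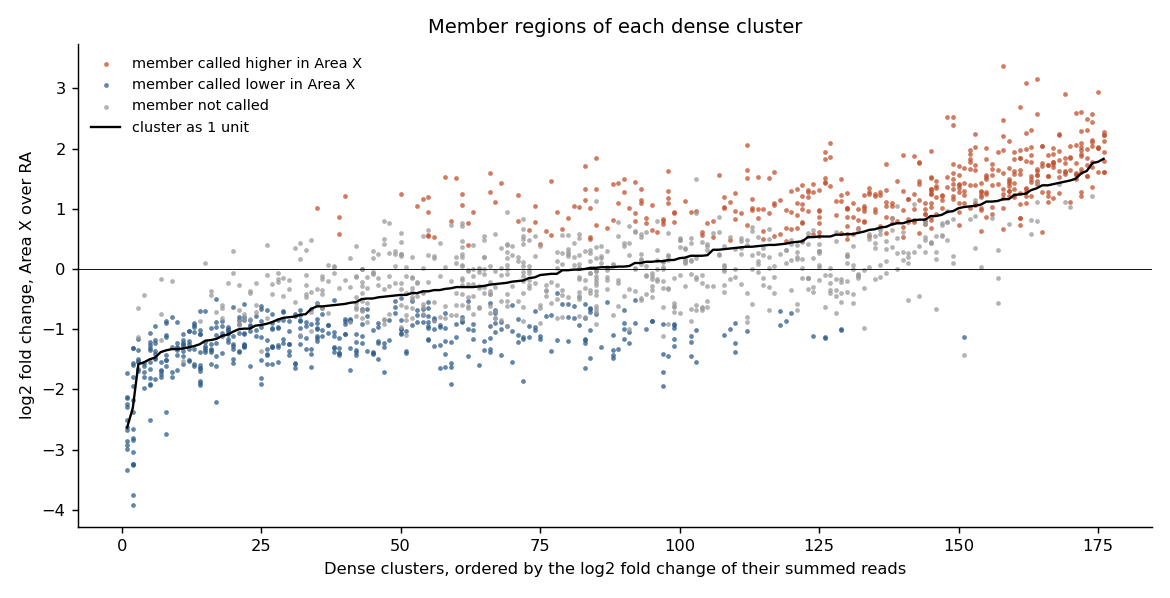
Each dot is 1 of the 1596 members, placed above its cluster, with the log2 fold change of Area X over RA on the vertical axis; the 176 clusters are ordered by the log2 fold change of their summed reads (black line). Called members higher in Area X (red) and lower (blue) occur in the same cluster in 55 cases, mostly in the middle of the order, and the leftmost clusters reach a log2 value of -3.92.

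The clusters described next are, in each direction, the called ones with the largest fold among those whose summed CPM did not overlap between nuclei. Because they were picked on this contrast, their folds describe the extremes. The cluster CPM is scaled within the fit over blocks.

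The largest fold of any cluster toward RA was at chrZ:14098145-14144416, the only cluster on chromosome Z. Its 14 rows spanned 46.3 kb, and all 12 members were lower in Area X. Summed CPM had a lowest, median and highest value of 66.8, 132 and 188 in Area X, against 510, 782 and 1284 in RA. Every RA library lay above every Area X library. The cluster was 6.21-fold lower in Area X (log2 fold change -2.63, SE 0.25, edgeR adjusted p = 8.34e-05), with 4.80-fold in singing and 8.03-fold in silent birds. Its members ranged in log2 fold change from -3.34 to -1.72. At the member with the most signal, chrZ:14131699-14135561, the level was 14.9 ± 5.18 CPM in Area X, against 105 ± 45.2 in RA (SD over 7 libraries). At chrZ:14110439-14111361, the member with the smallest difference, it was 6.20 ± 1.65, against 19.4 ± 6.81 in RA, still without overlap.

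The cluster chr10:16255984-16314220 showed the same over 19 rows and 58.2 kb. All 17 members and both wide rows were lower in Area X. Summed CPM had a lowest, median and highest value of 88.2, 139 and 171 in Area X, against 310, 638 and 1063 in RA. Again no library overlapped, and the fold was 4.97 lower in Area X (log2 fold change -2.31, SE 0.23, edgeR adjusted p = 0.000123). The difference varied along the cluster. The member with the most signal, chr10:16266030-16269812, had 26.6 ± 4.61 CPM in Area X and 79.0 ± 24.5 in RA, a 3.01-fold difference. Further along, chr10:16297965-16300877 had 6.45 ± 2.97 and 56.8 ± 20.5, a 9.39-fold difference. At chr10:16308103-16308422, a region of 320 bp, Area X libraries ranged from 0 to 1.49 CPM and RA libraries from 4.17 to 10.6. The smallest difference was at chr10:16270487-16272559, where 1 RA library stood at 8.69 CPM, below the Area X range of 12.9 to 19.9.

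Other clusters lower in Area X had weaker signal. At chr24:3220031-3247379, 7 of 9 members were lower in Area X, and summed CPM averaged 59.3 ± 17.4 in Area X and 168 ± 55.4 in RA, a fold of 2.99. At chr8:24930417-24957032, 5 of 6 members were lower, with 52.6 ± 10.2 and 149 ± 49.3, a fold of 2.92. Its first member, chr8:24930417-24931054, had 9.92 ± 3.15 CPM in Area X and 13.6 ± 4.73 in RA and did not pass (edgeR adjusted p = 0.246). At chr1A:65886881-65907440, a compact cluster of 8 rows in 20.6 kb, all 8 members were lower, with 111 ± 30.6 in Area X and 299 ± 81.6 in RA. The call of its member chr1A:65903328-65903867 was lost in 6 of the 14 fits that left out a library. At chr7:39416652-39445245, 5 of 8 members were lower, and 3 did not pass. There chr7:39435731-39437921 had 19.8 ± 8.49 CPM in Area X and 64.8 ± 18.5 in RA, while chr7:39423633-39425068, in the same cluster, had 17.1 ± 4.51 and 19.6 ± 8.36.

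Toward Area X, the largest fold among clusters without overlap was at chr12:17505648-17555590, with 13 rows in 49.9 kb. All 11 members were higher in Area X, and so were both wide rows. Summed CPM had a lowest, median and highest value of 179, 215 and 405 in Area X, against 26.2, 96.8 and 164 in RA. The fold was 3.02 (log2 fold change 1.59, SE 0.34, edgeR adjusted p = 0.00196). Area X singing 3 and 4 stood highest. The member with the most signal, chr12:17521239-17523886, had 67.0 ± 31.3 CPM in Area X and 20.4 ± 15.4 in RA.

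At chr8:15457397-15481363, a cluster of 8 rows, all 8 members were higher in Area X. Summed CPM ranged from 280 to 696 in Area X and from 80.4 to 277 in RA, and the highest RA library lay just under the lowest Area X library. The member chr8:15470560-15474478 carried 43.2% of the signal, with a median of 175 CPM (67.6 at the lowest) in Area X and 56.5 CPM (93.0 at the highest) in RA. At this single region the nuclei overlapped.

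At chr26_random:1065368-1155250, the cluster with the longest span, all 8 members and all 6 wide rows were higher in Area X. Summed CPM averaged 762 ± 108 in Area X and 331 ± 125 in RA, a fold of 2.35. At chr17:9051360-9104284, all 6 members were higher, with 482 ± 111 and 189 ± 84.8, a fold of 2.61. The call of its member chr17:9058733-9059645 was lost in 4 of the 14 fits that left out a library. Another member of this cluster, chr17:9101173-9102514, had 113 ± 27.2 CPM in Area X and 30.3 ± 22.0 in RA.

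At chr18:1485373-1546534, a single member set much of the sum. Summed CPM averaged 831 ± 111 in Area X and 386 ± 127 in RA, and chr18:1492636-1496231 alone had 311 ± 68.0 CPM in Area X and 100 ± 55.9 in RA. Only 3 of its 6 members were higher in Area X. The first, chr18:1485373-1485985, had 8.96 ± 2.61 CPM in Area X and 15.4 ± 7.13 in RA and did not pass (edgeR adjusted p = 0.0906). At chr13:505608-537013, 8 of 9 members were higher, with a summed CPM of 727 ± 111 and 346 ± 115. Its ninth member, chr13:515091-515366, stood at 6.74 ± 1.27 CPM in Area X and 6.52 ± 2.42 in RA, between called members on either side.

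**Figure D3:**
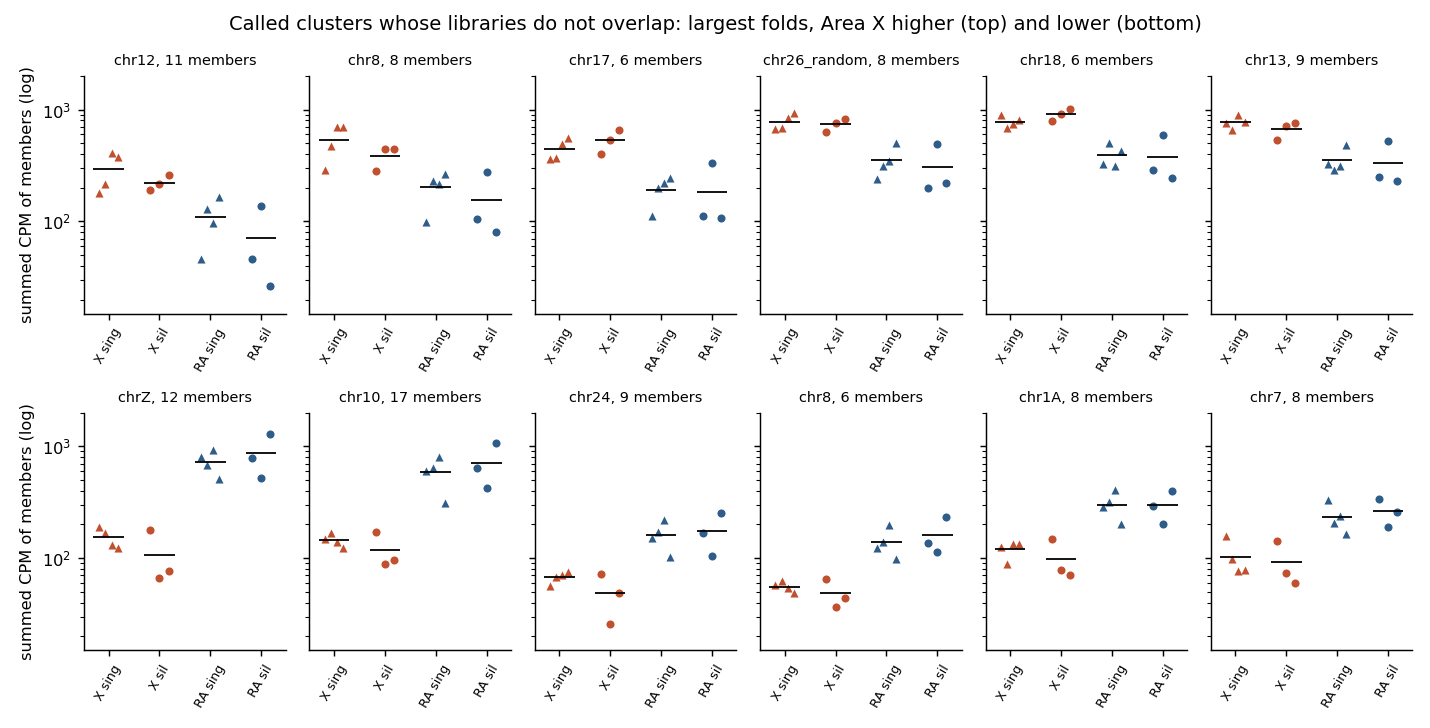
Summed CPM of members (log scale) in each library for 6 clusters higher in Area X (top row) and 6 lower in Area X (bottom row), with triangles for singing and circles for silent birds, Area X in red and RA in blue; lines are group means. In each panel the Area X and RA libraries do not overlap, from the chromosome Z cluster (at most 188 in Area X, at least 510 in RA) to the chromosome 8 cluster at top (at least 280 in Area X, at most 277 in RA).

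Of the clusters called higher in Area X, the largest fold was at chr4:58013327-58054699, where libraries overlapped. All 8 members were higher in Area X, and their log2 fold changes lay within 1.61 to 2.27, among the 3 narrowest ranges of any cluster. Summed CPM averaged 350 ± 138 in Area X and 105 ± 75.4 in RA, a fold of 3.57 (edgeR adjusted p = 0.00292). The lowest Area X library had 189 and the highest RA library 212. The clusters chr19:10889988-10916146 and chr24:6370740-6403399 had similarly narrow ranges in the other direction, from -1.52 to -1.02 and from -1.57 to -1.08. At the first, summed CPM averaged 161 ± 23.3 in Area X and 387 ± 117 in RA, and at the second 88.8 ± 29.6 and 211 ± 73.3.

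Single members with large differences toward Area X also lay outside those clusters. One of them, chr20:4621828-4623402, was 6.44-fold higher, with a median of 35.2 CPM in Area X and 2.71 in RA. At chr17:5016008-5017323 CPM averaged 57.8 ± 15.8 in Area X and 16.3 ± 9.44 in RA, 3.71-fold higher. At chr4A:4806493-4809345 it was 249 ± 85.4 and 80.3 ± 47.7, 3.23-fold higher. In none of the 3 did the nuclei overlap.

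The clusters with the most rows differed in how their members were split. The largest, chr9:20454548-20539197, had 23 rows in 84.7 kb and 19 members, of which 3 were higher in Area X, 1 lower and 15 not called. Its summed CPM averaged 496 ± 141 in Area X and 488 ± 78.3 in RA (log2 fold change 0.02, SE 0.17), but under signal-dependent scaling it was lower in Area X. At its start, chr9:20461219-20463059 had 38.7 ± 17.5 CPM in Area X and 12.4 ± 8.46 in RA, a 3.58-fold difference. The neighbouring chr9:20454548-20457330, its member with the most signal, had 56.6 ± 14.4 and 62.3 ± 12.9 and did not pass.

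The next in size, chr20:15069031-15138834, had 20 rows in 69.8 kb, and 14 of its 19 members did not pass. Its strongest member, chr20:15104326-15108127, had 55.3 ± 4.76 CPM in Area X and 94.7 ± 22.3 in RA, without overlap, and carried 23.2% of the signal. The cluster as a unit was 1.23-fold lower in Area X (edgeR adjusted p = 0.0415), a call that was lost on leaving out any 1 of 12 libraries and kept only without RA silent 2 or Area X singing 1. At chr14:10506094-10581885, 4 of 15 members were higher and 8 lower. There chr14:10514870-10515668 had 34.2 ± 4.15 CPM in Area X and 15.6 ± 6.15 in RA, and chr14:10567647-10570553 had 73.5 ± 7.27 and 116 ± 11.9, each without overlap and in opposite directions. Its call as a unit, 1.29-fold lower, was lost on leaving out any 1 of 10 libraries and kept without RA silent 2, Area X silent 1, Area X singing 1 or Area X singing 2. At chr17:5345597-5396659, 1.35-fold lower, it was lost without RA silent 1 or 3, RA singing 1, 2 or 3, Area X silent 2 or 3, or Area X singing 3.

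Among the large clusters, chr14:1437329-1512119 was mostly of 1 direction, with 13 of 16 members and all 3 wide rows higher in Area X and none lower. Its summed CPM averaged 807 ± 145 in Area X and 448 ± 144 in RA, a fold of 1.84 (edgeR adjusted p = 0.00209). At chr17:10937718-11002724, 7 of 15 members were higher and none lower. Its call as a unit, 1.46-fold higher, was lost under signal-dependent scaling (edgeR adjusted p = 0.479). At chr21:5407359-5472667, with 3 members higher and 5 lower, the sums were nearly equal at 693 ± 31.5 in Area X and 677 ± 88.9 in RA. There chr21:5415143-5418273 had 128 ± 17.3 CPM in Area X and 63.4 ± 19.4 in RA, and chr21:5407359-5408134, the first row of the cluster, had 7.13 ± 3.72 and 19.5 ± 6.70.

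The cluster chr23:3051584-3082883 showed opposite directions most plainly. Of its 9 members, 5 were lower in Area X, 3 did not pass and 1 was higher, and the 1 that was higher held 32.2% of the signal. At chr23:3076523-3080185, CPM had a lowest, median and highest value of 103, 150 and 179 in Area X, against 23.8, 56.5 and 90.6 in RA. At chr23:3063224-3065771, it was 9.69, 16.6 and 19.4 in Area X, against 29.2, 48.7 and 63.3 in RA. Neither region had overlapping nuclei. Their log2 fold changes were 1.52 (SE 0.30, edgeR adjusted p = 0.00139) and -1.63 (SE 0.21, edgeR adjusted p = 0.00058). As a unit the cluster was 1.26-fold lower in Area X, a call lost on leaving out any library but RA silent 2.

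At chr21:5780159-5828652, 3 of 13 members were higher and 6 lower, and the summed CPM averaged 410 ± 53.8 in Area X and 396 ± 84.7 in RA. The members at its ends of the range were weak, with 8.75 ± 3.06 and 2.23 ± 1.71 CPM at chr21:5819727-5820044 and 2.50 ± 1.35 and 6.45 ± 4.57 at chr21:5807837-5808347. At chr21:3825871-3853747, 5 of 9 members were higher and 2 lower. At chr26_random:818402-840706, 5 of 7 were higher and 1 lower, while its 1 wide row was lower in Area X (log2 fold change -1.04).

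**Figure D4:**
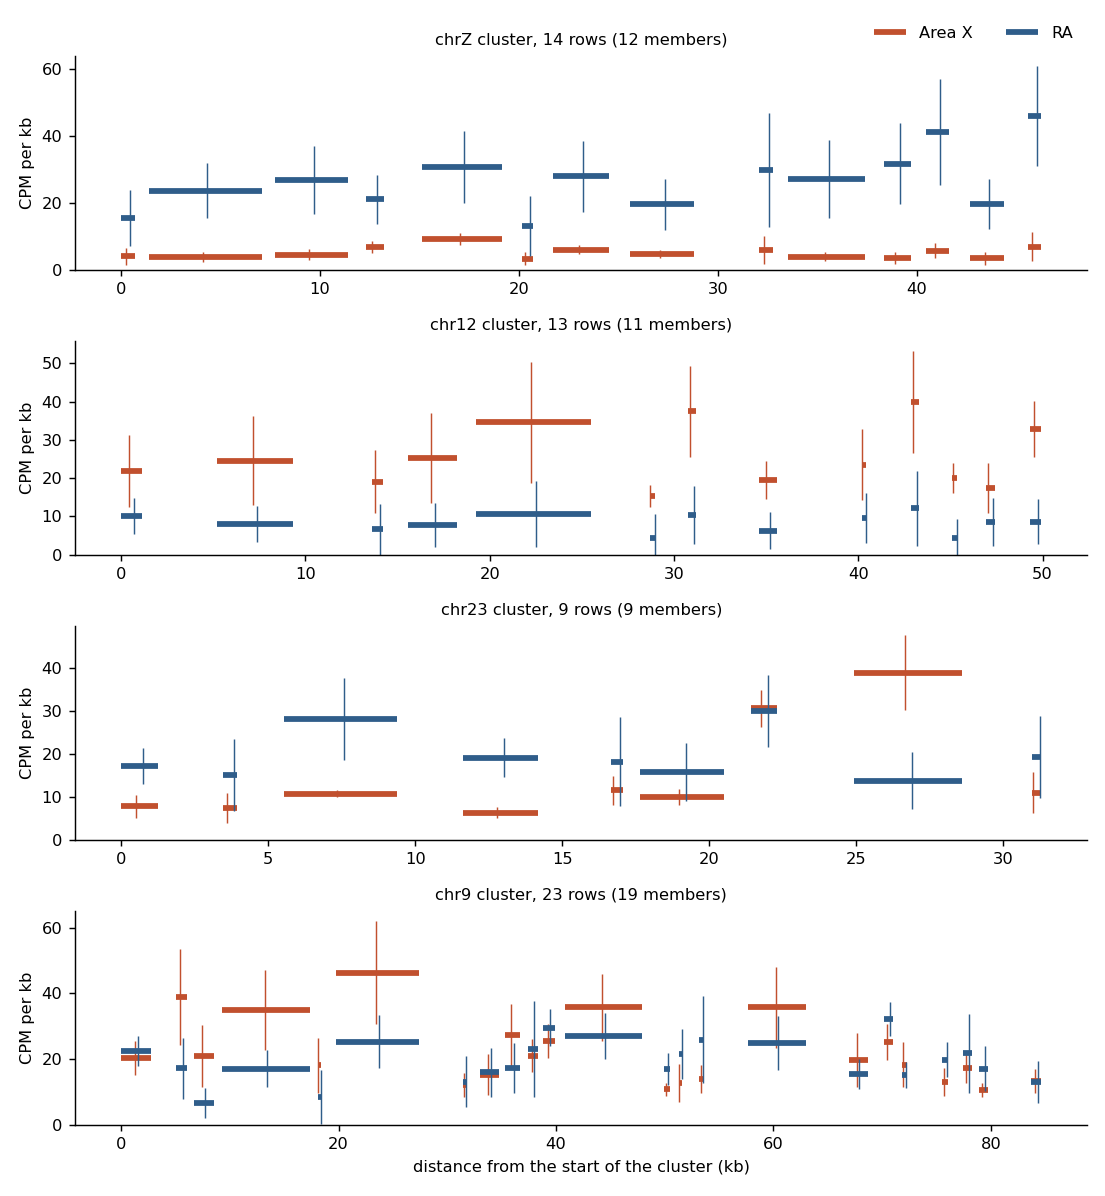
CPM per kb of each row (horizontal bars as long as the row; vertical lines are the SD over 7 libraries, shifted slightly apart) along 4 clusters, plotted against the distance from the cluster's start, with Area X in red and RA in blue and wide rows included. Area X lies below RA throughout the chromosome Z cluster and above it throughout the chromosome 12 cluster, while in the chromosome 23 cluster 1 member (142 ± 32.1 CPM in Area X, 50.3 ± 24.4 in RA) stands above RA while most others lie below it. In the chromosome 9 cluster the SDs of most rows overlap.

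The nuclei were next compared within each behaviour, with 4 against 4 libraries in singing birds and 3 against 3 in silent birds. In singing birds, 200 members were higher in Area X (12.5%; 10.4% of all regions) and 182 lower (11.4%; 8.09%). In silent birds, 168 were higher (10.5%; 10.3%) and 226 lower (14.2%; 9.5%). Of the members higher in Area X, 112 were called in both behaviours, which is 56% of the list in singing birds and 66.7% of that in silent birds. Of those lower, 138 were called in both, or 75.8% and 61.1%. No member was called in opposite directions. The comparisons share no library, but they use 1 fit with a pooled spread.

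As units, 42 clusters were higher in Area X in singing birds (23.9%; 8.74% of all blocks) and 30 lower (17.0%; 9.41%). In silent birds 26 were higher (14.8%; 7.15%) and 40 lower (22.7%; 11.7%). The balance turned with the scaling in singing birds, to 19 higher and 46 lower with total-count and 6 and 62 with signal-dependent scaling, and with only blocks at or above the median CPM it was 7 and 52. In silent birds signal-dependent scaling gave 9 higher and 54 lower, DESeq2 size factors 9 and 20, blocks at or above the median CPM 13 and 32, and the compared groups alone 0 and 0. The silent balance turned with the DESeq2 test, to 41 higher and 34 lower, and with library number added to the fit, to 52 and 48. The median CPM setting tests fewer blocks, and library sizes and TMM factors were computed again on the blocks kept. In singing birds the clusters' median log2 fold change moved with it, from 0.11 to -0.10. Calls over all blocks were not counted in these settings, so whether the clusters moved apart from the other blocks is not shown. The clusters at chrZ:14098145-14144416, chr10:16255984-16314220 and chr12:17505648-17555590 were called in both behaviours. Whether the difference between nuclei itself changes with behaviour is tested below, and no member or cluster passed that test.

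Both counts rest on single libraries, and so do the calls over all regions. In singing birds, 382 members were called (23.9%, against 18.45% of all regions). Of members, 0 were called without RA singing 3, Area X singing 3 or Area X singing 4. They numbered 127 without RA singing 1, 195 without RA singing 2 and 191 without Area X singing 2. Over all regions the calls numbered 0 in each of the first 3 settings, then 1986, 2847 and 2872. In silent birds, of 394 members (24.7%, against 19.8% of all regions), 0 were called without Area X silent 2 or 3. There were 7 without RA silent 1 and 3 without RA silent 3, but 718 without RA silent 2. Over all regions the calls numbered 0 and 0, then 10, 3 and 14521. The singing libraries, which also enter this fit, changed the count of members to 244 without RA singing 3 and to 209 and 231 without Area X singing 2 or 4. The counts over all regions were then 4135, 3593 and 3963. Without RA silent 2 and RA singing 4 together, 604 members were called in singing birds and 762 in silent birds (11231 and 15383 of all regions). When only the compared groups were fitted, 0 members were called in silent birds, and with DESeq2 size factors 243 (0 and 4080 of all regions). With library number added to the fit, 743 members were called in silent birds (15243 of all regions). For clusters, leaving out 1 library gave between 0 and 89 calls in singing birds in place of 72, with more than a 1.5-fold move without RA singing 1, 2 or 3, Area X singing 2, 3 or 4, or Area X silent 2 or 3. In silent birds it gave between 0 and 103 calls in place of 66, with such a move for each library except Area X silent 1, Area X singing 1, Area X singing 2 and RA singing 4. Without RA silent 2 and RA singing 4 together, 102 clusters were called in singing and 108 in silent birds. Calls over all blocks were not counted when libraries were left out here.

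The comparison of singing with silent birds asked whether H3K27ac in the clusters changes with behaviour. No member passed in Area X or RA, in their mean, or in the interaction of behaviour with nucleus (0% of all regions in each; edgeR, lowest adjusted p 1, 1, 1 and 1.00). At an unadjusted p under 0.05 there were 26 members in Area X (1.63%; 1.07% of all regions) and 25 in RA (1.57%; 1.96%). There were 31 in the mean of both nuclei (1.94%; 2.6%) and 11 for the difference (0.689%; 0.587%). DESeq2 called 0 members in each. No cluster passed in any of the 4 contrasts either, in edgeR or in DESeq2. At an unadjusted p under 0.05 there were 6 clusters in Area X (1.23% of all blocks), 0 in RA (1.7%), 4 in the mean (2.59%) and 2 for the difference (0.516%). Without RA silent 2 there were 23 clusters in RA and 12 for the difference, and without RA silent 2 and RA singing 4 together 13 and 5. In the separate fit over all 35954 single regions such p-values rose too, from 706 in RA and 211 for the difference. They numbered 3314 and 1672 without RA silent 2, and 2247 and 1299 without both libraries. The matching counts over all blocks, the unit of the cluster counts, were not made. None of these clusters or regions passed after adjustment.

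How large a change these data could have missed is given by the intervals. The 95% interval of a member's log2 fold change reached a median of 0.87 to either side in Area X and 0.91 in RA. It stayed within 2-fold in 625 members in Area X (39.2%) and 551 in RA (34.5%). Sums over a cluster were more precise, with a median of 0.49 to either side in both nuclei. The interval stayed within 2-fold in 149 of 176 clusters in Area X and 152 in RA. For the interaction the median was 0.69, and 107 clusters stayed within 2-fold.

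Most clusters lay slightly toward singing in Area X, but how far depended on the scaling, and so did the value in RA. The median log2 fold change, singing over silent, was 0.13 over clusters and 0.10 over all blocks, and 137 of 176 clusters (77.8%) were above 0, against 65.0% of all blocks. With total-count scaling the median over clusters was 0.05, and with only the Area X groups in the fit 0.01, so the size of this tilt moved with the scaling and the libraries in the fit. In RA the median was 0.02, with 93 clusters above 0, but 0.08 with 119 above 0 under total-count scaling and 0.12 with 133 under DESeq2 size factors, which gave 0.14 and 139 in Area X. Without RA silent 1, 56 clusters were above 0 in RA. With only blocks at or above the median CPM Area X had a median of 0.05 and RA of 0.18, and no test shows that the nuclei differ in this. Singing libraries of Area X lay above all silent ones in 9 clusters (5.11%; 2.4% of all blocks) and below all in none (1.08% of all blocks).

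The clusters and members described next were picked for small p-values in these contrasts. Their separation of libraries and their intervals, which are not adjusted for this choice, thus describe the extremes. The cluster with the smallest p was chr28:4208703-4256192, the only one on chromosome 28. In Area X its summed CPM was 688, 591, 656 and 657 in the singing libraries 1 to 4, against 460, 397 and 420 in the silent libraries 1 to 3. All singing libraries lay above all silent ones, and the log2 fold change was 0.61 (95% interval 0.28 to 0.93, edgeR adjusted p = 1). In RA it was 578, 500, 527 and 565 in singing and 587, 450 and 529 in silent libraries, which overlapped throughout. The log2 difference of the singing effect, Area X minus RA, was 0.55 (95% interval 0.10 to 1.00), and it did not pass (edgeR adjusted p = 1). Its member chr28:4247805-4250206, which holds 27.6% of the cluster's signal, had a larger log2 fold change in Area X than the cluster as a unit. This member had 118, 138, 206 and 172 CPM in singing libraries and 70.1, 71.2 and 84.6 in silent libraries of Area X (log2 fold change 1.07, 95% interval 0.50 to 1.64, edgeR adjusted p = 1).

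At chr12:20313781-20351461, Area X had 302, 350, 376 and 398 in singing libraries and 257, 219 and 223 in silent libraries. RA had 492, 376, 419 and 376 in singing libraries and 469, 342 and 488 in silent libraries. Area X lay below RA in silent birds (1.86-fold, edgeR adjusted p = 0.0204) and at 1.17-fold below in singing birds (edgeR adjusted p = 0.326), and the difference of the singing effect was 0.67 (95% interval 0.12 to 1.21) and did not pass (edgeR adjusted p = 1). Within it, chr12:20326532-20327959 was picked for a small p of the difference of the singing effect, Area X minus RA. This log2 difference was 1.00 to 1.27 when 1 library at a time was left out, and it passed in none of these fits. In Area X, this member had 26.4, 37.0, 30.2 and 30.7 CPM in singing libraries and 17.8, 17.8 and 19.0 in silent libraries. Its RA values are not given here.

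**Figure D5:**
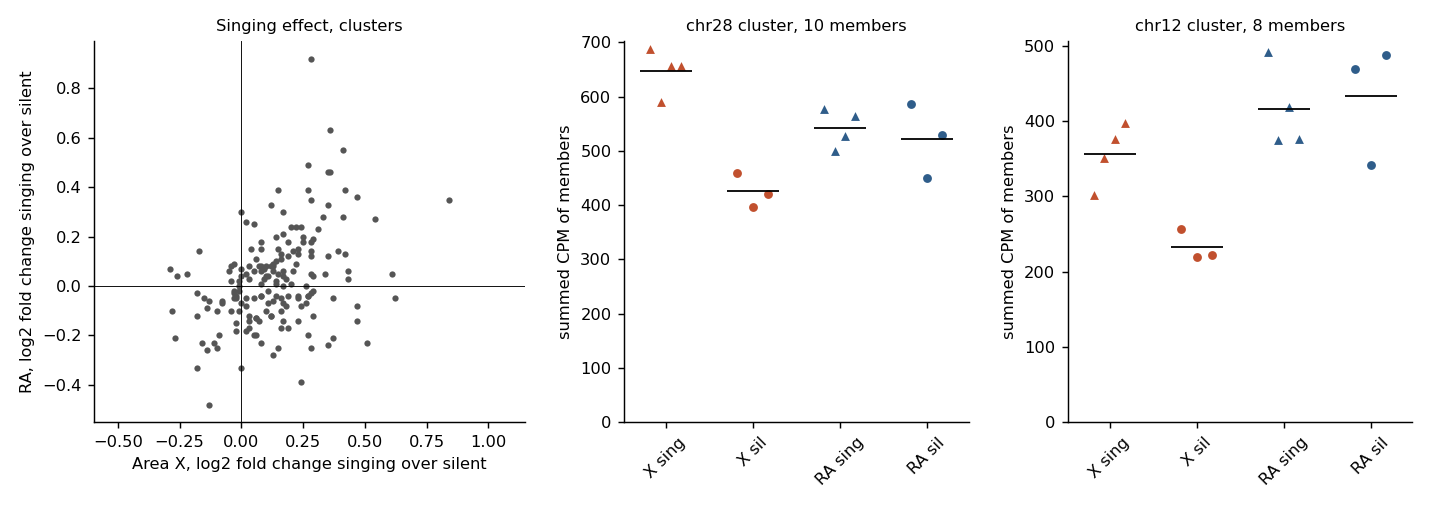
Left, the log2 fold change of singing over silent birds in Area X (horizontal) and RA (vertical) for the 176 clusters, none of which passed the test. Middle and right, summed CPM per library of the chromosome 28 and chromosome 12 clusters with the smallest p in Area X, with triangles for singing, circles for silent birds and lines for group means: Area X singing libraries lie at 591 or more on chromosome 28, against at most 460 in Area X silent libraries, while the RA libraries overlap.

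At chr9:14285091-14316790, 2 of the singing libraries decided the value. Area X had 219 and 315 in singing libraries 1 and 2 and 568 and 566 in singing libraries 3 and 4, against 200, 246 and 253 in silent libraries, so the groups overlapped. The same Area X singing libraries 3 and 4 were highest in the adjoining cluster chr9:14226650-14277878, with 709 and 621, against 331 and 451 in Area X singing 1 and 2 and 325 to 386 in silent libraries.

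In RA the smallest p among clusters was at chr25:68463-92464. Its summed CPM was 409, 292, 377 and 194 in singing libraries and 468, 327 and 562 in silent libraries, which overlapped, and the lowest was RA singing 4. The log2 fold change was -0.48 (95% interval -0.97 to 0.00), and it did not pass. It was -0.29 without RA singing 4, -0.67 without RA silent 2, -0.52 without both and -0.22 without RA silent 3, and passed in none of these. The members with the smallest p in RA were weak. At chr9:22631376-22631741, CPM was 10.6, 28.4, 12.2 and 21.7 in singing libraries and 6.33, 8.17 and 6.63 in silent libraries (log2 fold change 1.28, 95% interval 0.44 to 2.12). At chr10:8670994-8671363, it was 3.35, 1.67, 1.14 and 0 in singing libraries and 6.64, 6.19 and 6.43 in silent libraries. Both were without overlap, and the value of 0 came from RA singing 4, where a median member has 3 reads.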

How the data were processed

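The deposited table holds whole-number read counts per region and library, which the authors made before deposit; the submitters' processing notes name MACS2 2.1, HTSeq 0.6.1, SAMtools 1.1 and bedtools without saying what each did. Aligner and genome build were not given in the sources used here. How regions were merged across libraries was not stated either, and merging sets the gaps and widths on which the clusters rest.

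Counts were fitted in R 4.3.3 with edgeR 4.0.16 (quasi-likelihood, robust, TMM scaling, filterByExpr, 1 mean per group, all 14 libraries) over 35954 tested regions, and separately over 21910 joined blocks with rows up to 4000 bp summed. Calls had a Benjamini-Hochberg adjusted p under 0.05. Intervals are 95% intervals of the fit. Alternatives were DESeq2 1.42.0, total-count and signal-dependent scaling (limma 3.58.1), other filters, gap limits and cluster sizes, the replicate block and leaving out libraries. Members and lists were chosen with earlier results of these data known. Named clusters are those with the most rows, the largest called folds without overlap between nuclei, the smallest p for singing, and the widest and narrowest ranges of member fold changes; named regions are their strongest and extreme members and the members with the largest folds without overlap or the smallest p for singing. Whole-cell extracts were left out.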

Additional observations from a re-analysis of the deposited data

Results flagged for a closer look

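In 17 of 268 groups of 4 singing libraries tested for the named clusters and regions, 1 library stood apart from the other 3. Its gap to the nearest library, divided by the span of the whole group, exceeded 0.829, Dixon's critical value at the 95% level. Chance gives about 1 in 20 such groups, or 13.4 here, and groups of 3 silent libraries were not tested.

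RA singing 4, the shallowest library, stood apart in 8 of the cases. Its gap was 0.868 at the cluster chr17:10937718-11002724, 0.900 at chr17:787275-789241, 0.851 at chrZ:14140832-14142519 and 0.851 at chr13:16949110-16949979. It was 0.909 at chr21:5407359-5408134, 0.869 at chr12:17534361-17534600, 0.857 at chr26_random:1153127-1155250 and 0.872 at chr13:505608-509353.

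RA singing 1 stood apart at chr1:13914224-13914404 with 1.000, where the other 3 libraries are at 0, at chr8:15470560-15474478 with 0.861 and at chr26_random:1142440-1142918 with 0.839. Area X singing 1 did so at chr17:772279-773732 with 0.891, chr17:10947379-10947933 with 0.864, chr7:39443492-39445245 with 0.843 and chr26_random:833230-833539 with 0.835. Area X singing 2 stood apart at the cluster chr1A:65886881-65907440 with 0.873, and Area X singing 4 at chr24:4379106-4379996 with 0.863.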

How the results depend on the processing

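As reported, 464 members were higher and 465 lower in Area X, 382 were called in singing and 394 in silent birds, and 65 clusters were higher and 57 lower. Leaving out 1 library at a time gave 341 to 492 members higher and 352 to 499 lower, 0 to 499 in singing birds, 0 to 718 in silent birds, 59 to 70 clusters higher and 37 to 60 lower, and 0 calls of singing in each case. A mean CPM at or above the median left 242 members higher and 311 lower, with 9874 of 17979 tested regions called. Members below that level were no longer tested, and TMM scaling was computed again on the regions kept. An adjusted p under 0.01 left 291 higher, 301 lower, 0 in singing and 6 in silent birds. Calls over all regions were not counted at that threshold. Gaps up to 3000 bp (70 clusters, 556 members) gave 153 higher, 177 lower, 150 in singing and 157 in silent birds, with 24 clusters higher and 24 lower, by fewer members. Clusters of 12 or more rows (49) gave 147, 174, 134 and 142, with 13 and 17 clusters (26.5% and 34.7%; 24.4% and 28% of all blocks). Gaps up to 10000 bp (500 clusters) gave 209 and 124 clusters. Calls over all blocks were not counted for gaps up to 3000 bp (25191 blocks) or 10000 bp (17165 blocks). DESeq2 size factors left 243 members in silent birds and the compared groups alone 0; without RA silent 2 and RA singing 4 together there were 604 in singing and 762 in silent birds. Signal-dependent scaling gave 33 clusters higher and 89 lower, with 10269 of 21910 blocks called in either direction. It reversed chr9:20454548-20539197 (-0.42) and chr21:5407359-5472667 (-0.44), each 0.02 as reported. Where libraries were left out, calls over all regions moved as well. The cause of these moves was not tested.

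Replicate numbers did not pair the libraries throughout: same-numbered libraries' deviations correlated above 0.1 in 10 of 19 pairs and different-numbered ones in 17 of 54. The main fit has no term for library number. With the replicate block, 517 members were higher and 489 lower, 565 were called in singing and 743 in silent birds, 70 clusters were higher and 62 lower, and 0 passed for singing. Of all 35954 regions, 20860 were then called in the mean of behaviours, 10685 in singing and 15243 in silent birds. Of all 21910 blocks, 12772 were called in the mean of behaviours. The number 1 libraries deviated together, with correlations of 0.51 to 0.72. Without them, an alternative chosen after seeing the data, 334 members were higher and 487 lower, with 52 clusters higher and 49 lower. Over all features, 16985 of 35944 regions and 9961 of 21902 blocks were then called. RA singing 4 has a median of 3 reads per member, so its single-region values are coarse.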

Other observations

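Regions at the ends of a cluster were much like those inside it. The 303 members that are the first or last row of a cluster had a median width of 946 bp and a median of 17.7 CPM per kb, and 57.4% were called between Area X and RA. The 1293 inner members had medians of 953 bp and 17.1 CPM per kb, and 58.4% were called.

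Clusters often lay near another cluster. Of the 176, 86 were within 500 kb of another, in 52 pairs of nearest clusters. Both clusters of a pair were called between Area X and RA in 24 pairs, in the same direction in 17 and in opposite directions in 7. Of all 176 clusters, 36.9% were higher in Area X and 32.4% lower. Whether near clusters are more alike than others was not tested.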
